A study of Mus musculus with 8 samples.

Results

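Periostin, fibronectin and 8 other proteins of the muscle matrix were followed in soleus, a calf muscle rich in slow fibres. The 10 genes, Postn, Fn1, Bgn, Dcn, Lum, Sparc, Tnc, Thbs1, Lox and Timp1, are 10 of the 19938 genes with a probe set annotated to that symbol alone. They were chosen by name, with the probe set of the highest mean over all 8 arrays kept for each gene. Each of the 10 has 1 such probe set, so that no measured value decided between probe sets. The 4 tested animals were male Ts65Dn mice aged 5 months, a model of Down syndrome in which an extra marker chromosome carries the distal part of mouse chromosome 16 and the centromeric part of chromosome 17, so that the genes there are present in 3 copies. The 4 controls were male wild-type (WT) colony controls of the same age, labelled B6EiC3SnF1/J, a mix of B6 and C3H background. All muscles were taken in the basal state under sodium pentobarbital, and each mouse gave 1 array. The extra chromosome is present in every cell, and 0 of the 10 genes lie in the triplicated segments.

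Muscle fibres are held together by a matrix that is made largely by fibroblasts. Collagens and fibronectin give it its fibres, and small leucine-rich proteoglycans such as biglycan, decorin and lumican bind collagen and set fibril spacing and width. Matricellular proteins, among them periostin, SPARC, tenascin-C and thrombospondin 1, signal to cells through integrins and other receptors rather than bearing load. As a class they are known for being low in resting adult tissue and high in growth, injury and fibrosis. Sparc, however, was bright in both groups here, with means of 9.91 in Ts65Dn and 9.48 in WT. Lysyl oxidase crosslinks collagen and elastin, and TIMP-1 inhibits the metalloproteinases that cut the matrix.

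Values are log2 RMA values of gene-level probe sets, and a difference of 1 is a doubling of signal, so that fold changes below are Ts65Dn over WT on the log2 scale. The groups differed in overall range. The array median was 4.26 ± 0.02 in Ts65Dn and 4.46 ± 0.09 in WT, and the interquartile range 3.05 ± 0.05 in Ts65Dn and 2.80 ± 0.15 in WT (SD, n = 4 each; exact two-sided permutation p = 0.0286 for each, the smallest that the 70 splits allow). WT arrays 2 and 3 had the narrowest ranges, 2.74 and 2.62. The median fold change was -0.10 over all genes. Among genes outside the triplicated segments it was -0.22 for those with a mean level up to 5 and 0.31 for those between 7 and 9. Level-matched fold changes, taken relative to the 100 genes nearest in mean level, are therefore given beside the plain ones. The slow-fibre genes Myh7, the slow myosin heavy chain, and Tnnt1, slow troponin T, were bright in both groups, at 10.52 ± 0.10 and 12.22 ± 0.05 in Ts65Dn and 10.26 ± 0.35 and 12.24 ± 0.12 in WT (SD, n = 4 each).

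Of the 10 genes, 3 passed limma's test over all genes as higher in Ts65Dn and 0 as lower, at a Benjamini-Hochberg adjusted p under 0.05. They were Postn, Fn1 and Bgn. Over all 19938 genes 2.32% passed as higher and 2.94% as lower. A fold change above 0 was held by 9 of the 10, with a median of 0.45, against 39.2% positive and a median of -0.10 over all genes. The level-matched median was 0.62 for the 10 and 0.00 for all genes. In 4 of the 10, Postn, Fn1, Bgn and Lum, every Ts65Dn array lay above every WT array, which held for 6.81% of all genes, and in 0 of the 10 every Ts65Dn array lay below, which held for 15.9%. Because the genes were picked with these group differences already known, their counts describe them and are no independent test.

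**Figure D1:**
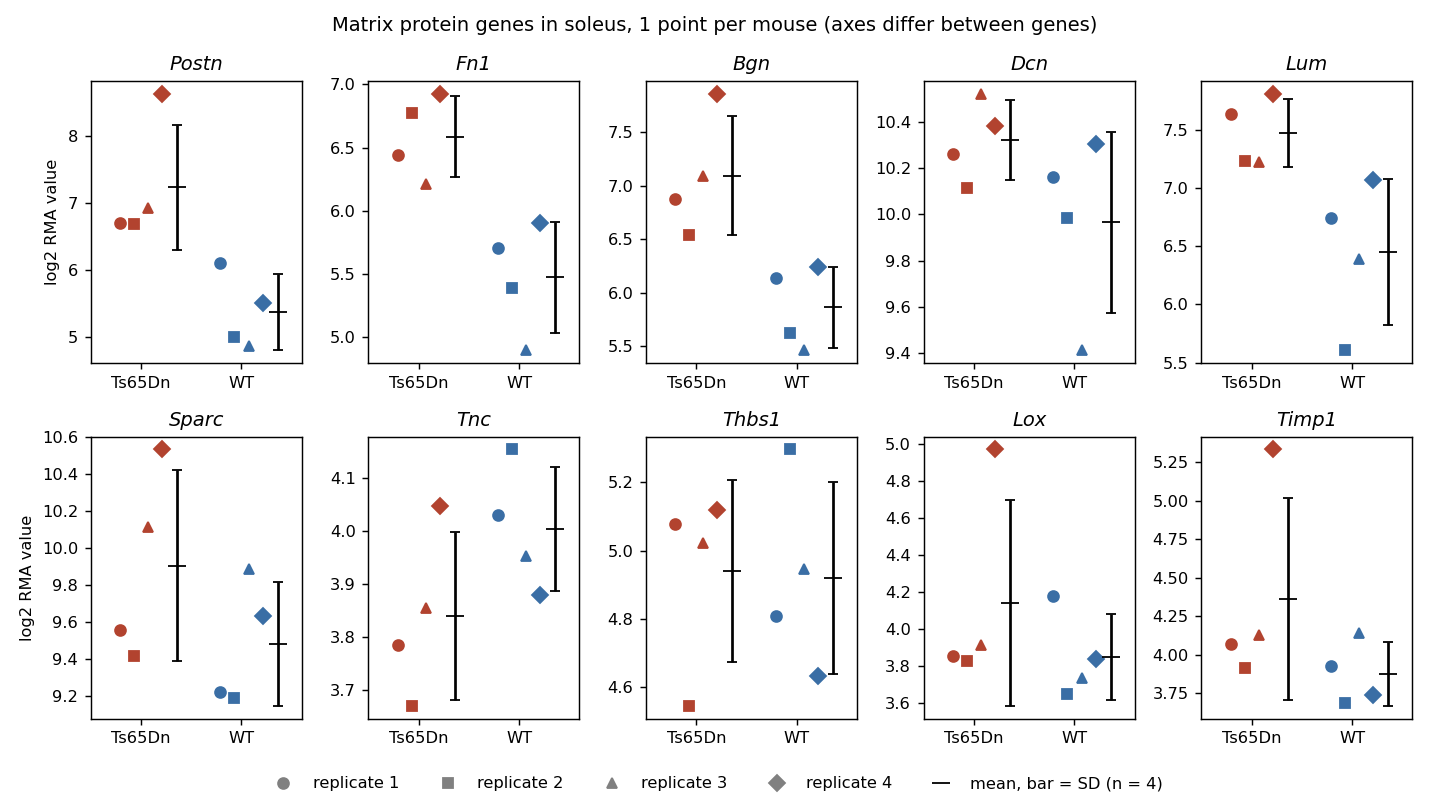
The log2 RMA value (vertical axis, scaled to each gene) of the 10 genes in each mouse, with Ts65Dn on the left and WT on the right of each panel. Points are single arrays and bars the mean and SD of 4. In Postn, Fn1, Bgn and Lum the groups do not overlap, and in Lox and Timp1 a single Ts65Dn array, at 4.97 and 5.33, stands above all other arrays.

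Postn encodes periostin, a secreted protein that binds collagen, fibronectin and tenascin-C and is a ligand of integrins. It was at 6.71, 6.68, 6.93 and 8.63 in Ts65Dn arrays 1 to 4, against 6.11, 5.00, 4.87 and 5.51 in WT arrays 1 to 4. The 3 lower Ts65Dn values lay within 0.3 of each other, array 4 stood well above them, and the lowest of the 4 was still above the highest WT array. Means were 7.24 ± 0.93 in Ts65Dn and 5.37 ± 0.56 in WT (SD, n = 4 each), and Postn rose by 1.87 ± 0.42 (SE), a 3.65-fold higher signal (limma adjusted p = 0.0456). That was rank 5 of the fold changes of all 19938 genes, and rank 11 after level matching, where the fold change was 1.62. The arrays measure whole muscle, so that here and below a difference in the number of cells of a type and a difference in RNA per cell cannot be told apart.

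Fn1, fibronectin, forms the fibrils on which collagens and periostin are laid down. Its values were 6.44, 6.77, 6.21 and 6.92 in Ts65Dn, against 5.70, 5.39, 4.90 and 5.90 in WT. Here no single Ts65Dn array stood apart, and WT array 3 was the lowest. Fn1 rose by 1.11 ± 0.23 (SE), with means of 6.59 ± 0.32 in Ts65Dn and 5.47 ± 0.44 in WT (SD, n = 4 each; limma adjusted p = 0.0456). The level-matched value, 1.05, was close to it.

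Among the proteoglycans, Bgn, biglycan, which in muscle also binds the dystrophin-associated complex, was at 6.88, 6.54, 7.09 and 7.86 in Ts65Dn, against 6.13, 5.62, 5.46 and 6.24 in WT. It rose by 1.23 ± 0.27 (SE; limma adjusted p = 0.0456), with a level-matched value of 1.09. As in Postn, Ts65Dn array 4 was the highest and WT arrays 2 and 3 the lowest.

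Lum, lumican, a proteoglycan of the same family that binds fibrillar collagen, was at 7.64, 7.23, 7.23 and 7.81 in Ts65Dn, against 6.74, 5.61, 6.39 and 7.07 in WT. The groups did not overlap, but the gap between the lowest Ts65Dn and the highest WT array was narrow and WT array 2 was far below the rest. The fold change of 1.02 ± 0.28 (SE) missed the threshold (limma adjusted p = 0.0537), and the level-matched value was 0.66.

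Dcn, decorin, the close relative of biglycan that also binds TGF-beta, was at 10.26, 10.12, 10.52 and 10.38 in Ts65Dn, against 10.16, 9.98, 9.41 and 10.31 in WT. The groups overlapped, and only WT array 3 stood apart, below the others. The fold change was 0.35 ± 0.19 (SE; limma adjusted p = 0.201). Without WT arrays 2 and 3 it was 0.09.

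Among the matricellular proteins, Sparc, a collagen-binding glycoprotein also called osteonectin, was at 9.56, 9.42, 10.11 and 10.53 in Ts65Dn, against 9.22, 9.19, 9.88 and 9.63 in WT. The ranges overlapped, with WT array 3 above 2 of the Ts65Dn arrays. The fold change was 0.42 ± 0.25 (SE; limma adjusted p = 0.243), and 0.21 without Ts65Dn array 4.

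Thbs1, thrombospondin 1, which can activate latent TGF-beta and binds CD47 and CD36, was at 5.08, 4.55, 5.02 and 5.12 in Ts65Dn, against 4.81, 5.30, 4.95 and 4.63 in WT. The lowest and the highest of the 8 arrays were a Ts65Dn and a WT array, and the fold change was 0.02 ± 0.18 (SE; limma adjusted p = 0.940). Tnc, tenascin-C, which in adult muscle is found mainly at the myotendinous junction and in regeneration, was at 3.79, 3.67, 3.86 and 4.05 in Ts65Dn, against 4.03, 4.15, 3.95 and 3.88 in WT. Its signal was dim on every array. The fold change was -0.16 ± 0.12 (SE; limma adjusted p = 0.350), and its sign turned to 0.11 after level matching.

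Lox, lysyl oxidase, was at 3.85, 3.82, 3.91 and 4.97 in Ts65Dn, against 4.18, 3.65, 3.73 and 3.84 in WT. Timp1 was at 4.07, 3.91, 4.12 and 5.33 in Ts65Dn, against 3.92, 3.69, 4.14 and 3.74 in WT. In each of these dim genes Ts65Dn array 4 lay above the other 7 arrays, which overlapped. The fold changes were 0.29 ± 0.25 for Lox and 0.49 ± 0.28 for Timp1 (SE; limma adjusted p = 0.405 and 0.227). Without Ts65Dn array 4 they were 0.01 and 0.16.

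**Figure D2:**
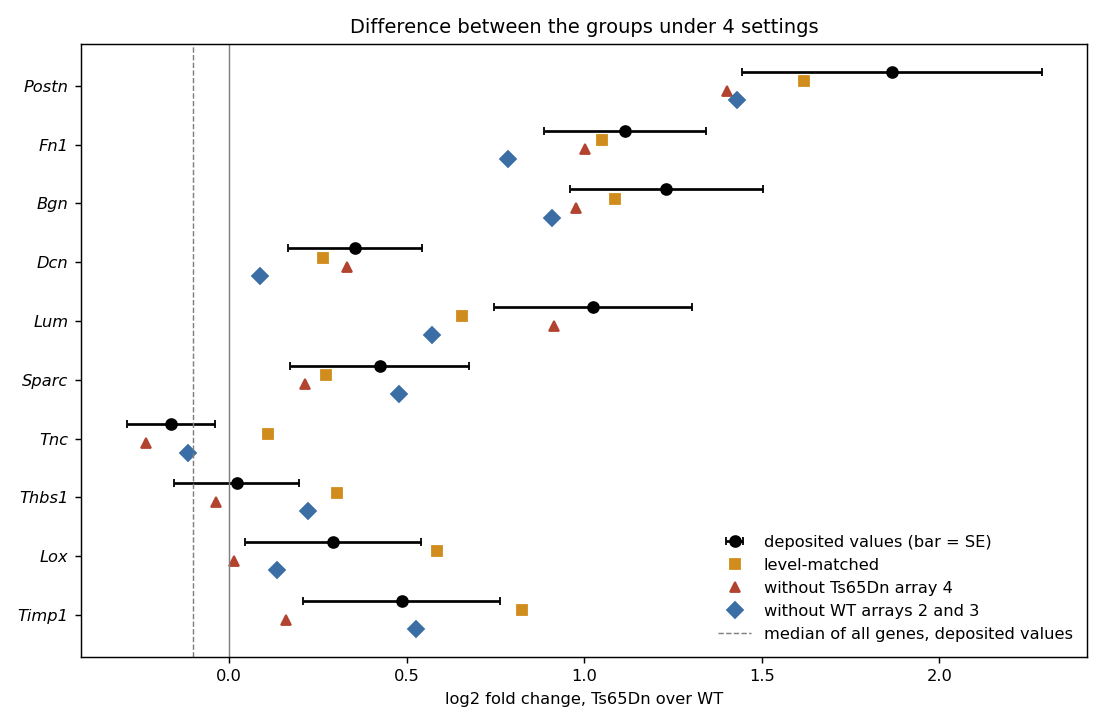
The log2 fold change of Ts65Dn over WT (horizontal axis) for the 10 genes, from the deposited values with SE bars, after level matching, without Ts65Dn array 4, and without WT arrays 2 and 3. Postn, Fn1, Bgn and Lum stay above 0.5 in all 4 settings, while Tnc and Thbs1 lie on either side of 0.

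Calls in this series lie close to the threshold. The smallest adjusted p of any gene was 0.0449. Of all 19938 genes 6948 had an unadjusted p under 0.05, and 4 of the 10 genes were among these, a like share. Counts at an unadjusted p under 0.05 in the lists below are to be read beside that share. Counts of calls there are to be read beside the 2.32% of all genes called higher and the 2.94% called lower. The calls of Postn, Fn1 and Bgn were lost when any 1 Ts65Dn array, WT array 2 or WT array 3 was left out, and 4 of the 10 were called without WT array 1 or 4. They were also lost with level matching (limma adjusted p = 0.0782 for Postn, 0.0541 for Fn1 and 0.0612 for Bgn), cyclic loess, another quantile normalization, array weights, adjustment over all probe sets and the replicate block (0.0530 for each of the 3). Their direction was kept. The fold changes of Postn, Fn1, Bgn and Lum were positive in each of the 20 alternative settings, at 1.40 to 2.11 for Postn, 0.78 to 1.32 for Fn1, 0.91 to 1.43 for Bgn and 0.57 to 1.23 for Lum.

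Single arrays stood out across the 10 genes. Ts65Dn array 4 was the highest of the 8 arrays in 7 of the 10, namely Postn, Fn1, Bgn, Lum, Sparc, Lox and Timp1, and in 10.7% of all genes. In the lists below it was the highest in 5 of 13 other small proteoglycans and 7 of 19 collagen crosslinking and processing genes. The same held for 3 of 21 matricellular relatives, 1 of 10 collagens, 3 of 9 fibroblast markers and 5 of 12 macrophage markers. WT array 2 or 3 was the lowest in 8 of the 10, beside 28.5% of all genes. Without Ts65Dn array 4 the fold change was 1.40 for Postn, 1.0 for Fn1, 0.98 for Bgn and 0.91 for Lum. The groups still did not overlap in these 4 genes, and in Tnc the remaining Ts65Dn arrays then lay below all WT arrays, while over all genes 8.67% lay above and 18.6% below in that setting. Without WT arrays 2 and 3 the fold change was 1.43 for Postn, 0.78 for Fn1, 0.91 for Bgn and 0.57 for Lum, and the same 4 genes did not overlap, beside 10.1% of all genes above. All 4 Ts65Dn values were above all WT values for Timp1 as well, and for Postn, Fn1 and Bgn still, after level matching, where the groups in Lum overlapped and 6.34% of all genes lay above.

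**Figure D3:**
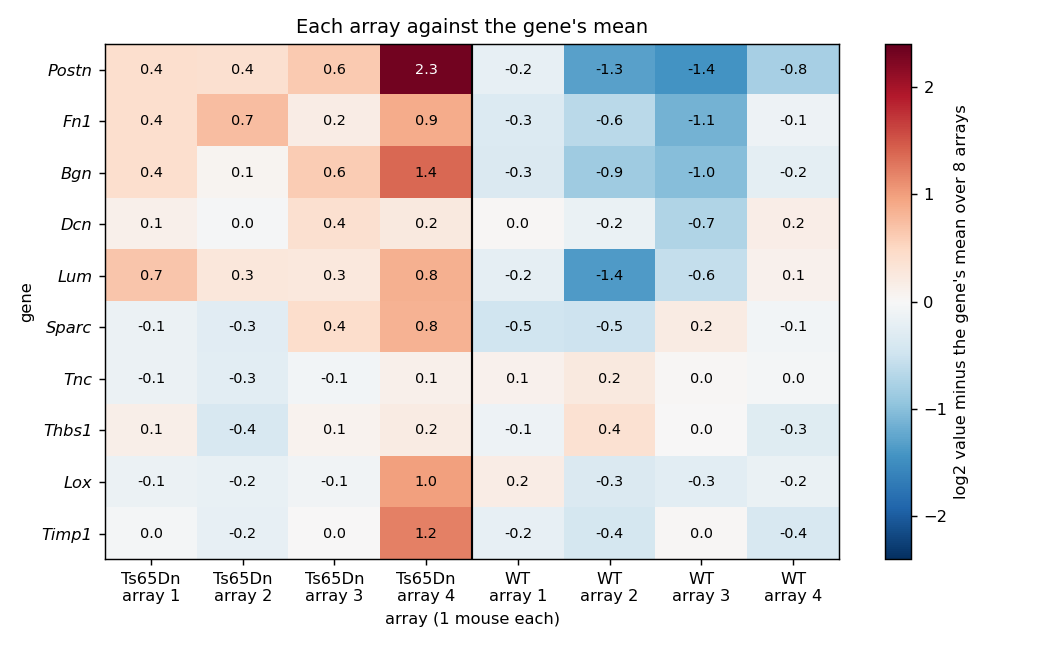
The log2 value of each array minus the gene's mean over all 8 arrays (colour, printed in each cell), with genes as rows and arrays as columns, Ts65Dn left of WT. Ts65Dn array 4 is the reddest column in 7 of the 10 genes, and WT arrays 2 and 3 hold the lowest value in 8.

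With the group means taken out, the 4 genes without overlap still moved in the same direction from mouse to mouse. Pearson's r between their deviations over the 8 arrays was 0.51 to 0.92 in the 6 pairs, and 0.45 to 0.83 without Ts65Dn array 4. For each r without that array, it was dropped after the group means of all 4 arrays had been taken out. It therefore still enters these r values through the Ts65Dn mean. All r values here are descriptions, since all points share the arrays and their differences in range. Over all 45 pairs of the 10 genes the median r was 0.51, and 0.22 without Ts65Dn array 4. The highest value was that of Postn with Lox, at 0.98 and 0.95 without that array, although the 2 genes differed in their group difference. Lox was dim, at 3.65 to 4.18 outside Ts65Dn array 4. WT array 1 was the highest WT array in both genes, at 6.11 in Postn and 4.18 in Lox. Tnc and Thbs1 had an r of 0.81, and 0.86 without that array, while r between Thbs1 and Fn1 was -0.41 and between Thbs1 and Lum -0.46.

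Of the 9962 other genes above the median level, those closest to Postn in the same deviations were Rrs1, Ccndbp1, Cdh5, Nfix and Gtf2f1, with Pearson's r from 0.94 to 0.96 over the 8 arrays. Their Spearman's rho was 0.55 to 0.95, and r was 0.55 to 0.93 without the arrays whose Postn deviation lay farthest from the median, Ts65Dn array 4 and WT array 1. The likeness of Gtf2f1 (0.55), Cdh5 (0.65) and Nfix (0.70) thus rested in part on those arrays. Here and for Fn1 below, arrays were dropped after the group means had been taken out. They therefore still enter r through these means. Cdh5, the adhesion protein of endothelial junctions, had a fold change of 0.54 (limma adjusted p = 0.08), and those of the other 4 were 0.11 to 0.26. Closest to Fn1 were Cand1, Stx7, Acp6, Adgre5 and Slc46a3 (r from 0.96 to 0.98, rho from 0.98 to 1, and r from 0.88 to 0.98 without the 2 farthest arrays, WT array 3 and Ts65Dn array 3). The largest fold change of these was that of Cand1, at 0.86 (limma adjusted p = 0.104). These are the highest of 9962 values each and are given as a description, and none of these 10 genes passed the test between the groups.

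RefSeq promoter windows of GRCm38.p6, from 250 bases before to 50 after an annotated start, were at hand for 5 of the 10 genes, Postn, Tnc, Sparc, Timp1 and Bgn. Postn and Bgn are shown because they rose together, and Timp1 because it shared their high value in Ts65Dn array 4. Capitals mark, on either strand, the TATA box spelled TATAAA, the CCAAT box by its name, the GC box spelled GGGCGG, the AP-1 site spelled TGANTCA, the E-box spelled CANNTG, the TEAD site spelled GGAATG and the SMAD site spelled CAGAC. Overlapping matches were merged. The Postn window, chr3:54360857-54361156 on the plus strand, is the downstream of 2 annotated starts. Those of Bgn, chrX:73483351-73483650, and Timp1, chrX:20869916-20870215, also lie on the plus strand.
Postn: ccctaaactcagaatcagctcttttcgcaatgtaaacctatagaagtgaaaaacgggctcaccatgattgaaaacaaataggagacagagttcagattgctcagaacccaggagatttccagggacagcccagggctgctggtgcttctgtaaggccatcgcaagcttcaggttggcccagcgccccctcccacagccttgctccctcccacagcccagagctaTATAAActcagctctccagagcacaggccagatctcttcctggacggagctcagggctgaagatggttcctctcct
Bgn: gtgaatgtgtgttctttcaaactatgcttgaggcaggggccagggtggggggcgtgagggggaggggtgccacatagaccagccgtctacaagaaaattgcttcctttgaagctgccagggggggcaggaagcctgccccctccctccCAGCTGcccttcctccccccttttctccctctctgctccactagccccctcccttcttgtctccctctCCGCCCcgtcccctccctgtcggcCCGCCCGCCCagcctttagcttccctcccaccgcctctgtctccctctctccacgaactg
Timp1: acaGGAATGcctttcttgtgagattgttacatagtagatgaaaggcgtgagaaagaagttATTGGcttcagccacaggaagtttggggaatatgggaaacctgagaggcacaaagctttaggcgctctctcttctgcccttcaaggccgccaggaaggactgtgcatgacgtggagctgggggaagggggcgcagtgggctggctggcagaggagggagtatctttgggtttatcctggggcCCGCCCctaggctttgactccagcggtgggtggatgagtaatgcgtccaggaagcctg

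The Postn window held 1 of the 7 motifs, a TATA box beginning 26 bases before the start, which 13.6% of all 32851 windows held somewhere. The Bgn window held no TATA box, 3 GC boxes within 34 bases before the start, of which 2 overlapped, and 1 E-box. A GC box was found in 35.7% of all windows and an E-box in 72.3%. The Timp1 window held 1 GC box, 1 CCAAT box (37.4% of all windows) and 1 TEAD motif (14.7%). The GC box was thus in the Bgn and Timp1 windows. It was also in both windows of Tnc, not shown, which held a TATA box as well, and Tnc did not pass limma's test. The upstream Postn window, not shown, held a CCAAT box after its start and a SMAD motif 191 bases before it, and SMAD motifs also lay in the Sparc window and both Tnc windows (49.6% of all windows). The AP-1 letters, in 7.81% of all windows, were in none of the 7 windows of the 5 genes. Such matches are letters in a window.

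Among the 13 other small leucine-rich proteoglycans measured, 0 passed limma's test and 2 had an unadjusted p under 0.05, beside 6948 of all 19938 genes. The median fold change was 0.23, and 8 were positive. Fmod, fibromodulin, was at 5.74 ± 0.59 in Ts65Dn and 5.37 ± 0.35 in WT, and Ogn, osteoglycin, at 6.73 ± 0.33 in Ts65Dn and 6.32 ± 0.70 in WT (SD, n = 4 each). Aspn, asporin, named here after its values were seen, had a fold change of 0.81 (limma adjusted p = 0.0547). It was the 1 member of this list with all Ts65Dn arrays above all WT arrays, which held for 6.81% of all genes. In Optc, opticin, also named after its values were seen, all Ts65Dn arrays lay below all WT arrays, which held for 15.9%. Its fold change was -0.47 (limma adjusted p = 0.0651), and -0.22 after level matching. The median of the list was 0.01 without WT arrays 2 and 3.

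Of 21 relatives of the matricellular genes, 1 was called higher and 0 lower, and 7 were positive and 14 negative. All Ts65Dn arrays lay above all WT arrays in 2 and below in 4, beside 6.81% and 15.9% of all genes. The 4 were Tnr (-0.42), Spock2 (-0.60), Ccn2 (-0.26) and Ccn5 (-0.54), named after their values were seen. Their level-matched values were -0.18, -0.42, -0.39 and -0.55. The gene called was Sparcl1, a SPARC-like glycoprotein also called hevin, at 9.47, 9.31, 9.37 and 9.87 in Ts65Dn, against 8.92, 8.64, 8.77 and 8.76 in WT. Every Ts65Dn array lay above the WT range, and the fold change was 0.73 ± 0.14 (SE; limma adjusted p = 0.0456). It was 0.67 without WT arrays 2 and 3 and 0.61 without Ts65Dn array 4. The list's median was -0.16, and 0.00 after level matching.

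Of 19 genes that crosslink and process collagen, 0 were called higher and 1 lower. The lower gene was Loxl4, of the lysyl oxidase family, at 3.20, 3.38, 3.76 and 3.31 in Ts65Dn, against 3.91, 4.35, 4.29 and 3.92 in WT. The groups did not overlap, and Loxl4 fell by 0.71 on the log2 scale (limma adjusted p = 0.0456). At this dim level genes as a whole were lower in Ts65Dn, and the level-matched value was -0.45. Of the 16 metalloproteinases and inhibitors measured beside Timp1, 0 passed limma's test, with 3 at an unadjusted p under 0.05 and a median of -0.18, or 0.01 after level matching. Timp2 and Timp3 had fold changes of 0.27 and 0.60 (limma adjusted p = 0.377 and 0.207).

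Among 26 receptors and adhesion genes 2 were called higher and 0 lower, with a median of -0.02. Sdc2, syndecan 2, a heparan sulfate proteoglycan of the cell surface that binds fibronectin, was at 7.09, 6.72, 6.32 and 6.70 in Ts65Dn, against 5.76, 4.74, 4.58 and 5.99 in WT. It rose by 1.44 ± 0.31 (SE; limma adjusted p = 0.0456), and the groups did not overlap. Without WT arrays 2 and 3 the fold change was 0.83. Itgb6, the integrin beta 6 chain, was at 7.98, 7.93, 8.06 and 8.01 in Ts65Dn, against 7.80, 7.08, 7.02 and 7.37 in WT, and rose by 0.67 (limma adjusted p = 0.0485). It was 0.41 without WT arrays 2 and 3 and 0.37 after level matching.

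The input to the pathway through TGF-beta, which induces Postn and Fn1 in fibroblasts, was described by 21 genes. Of these 0 passed limma's test, and the median was -0.02. An unadjusted p under 0.05 was found in 8 of the 21, near the share of all genes (6948 of 19938). Tgfb1 and Tgfb2 had fold changes of -0.28 and 0.25 (limma adjusted p = 0.201 and 0.258), and of 0.02 and 0.18 after level matching. Of the 10 collagen genes measured as partners 0 passed limma's test, 1 had an unadjusted p under 0.05, and 9 had a negative fold change, with a median of -0.12. Over all genes the median was -0.10, and 39.2% had a positive fold change. Col1a1 was at 5.72, 5.66, 5.81 and 5.76 in Ts65Dn, against 5.79, 6.23, 6.52 and 5.79 in WT, and Col1a2 had a fold change of -0.24. In Col1a1, WT arrays 2 and 3 were the highest, the reverse of their place in Postn, Fn1 and Bgn. With these 2 arrays left out, the fold change was -0.05 for Col1a1 and -0.15 for Col1a2. The collagen median turned to 0.08 when each array was centred on its median. It stayed negative with level matching (-0.10), another quantile normalization (-0.16) and cyclic loess (-0.08).

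**Figure D4:**
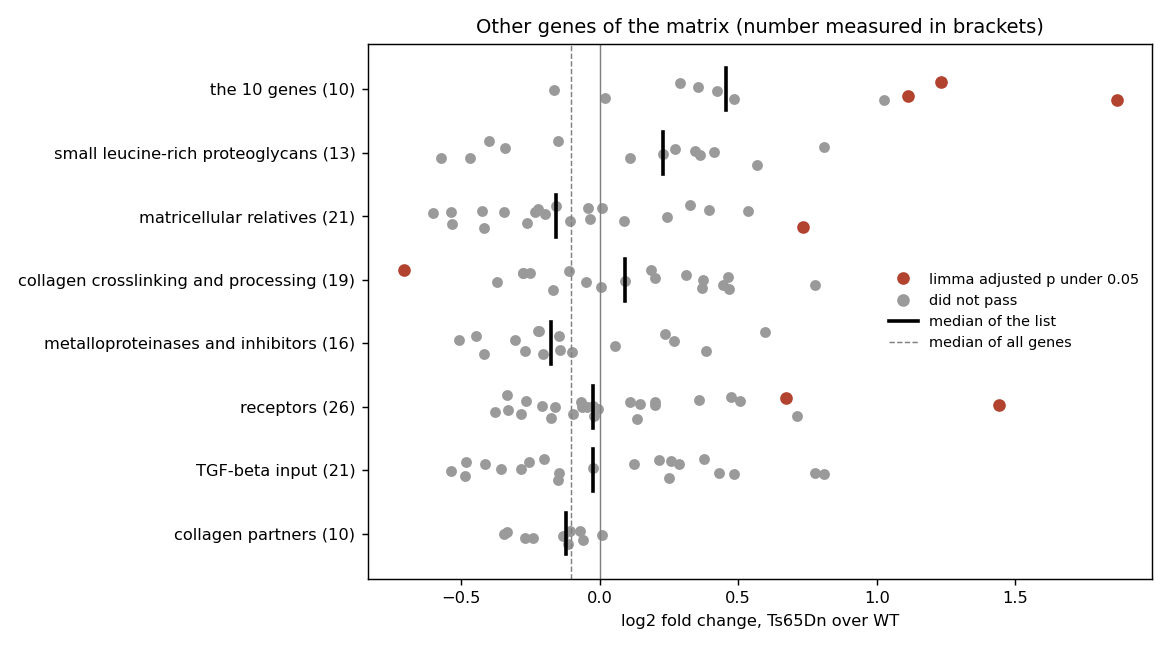
The log2 fold change of Ts65Dn over WT (horizontal axis) for the 10 genes and for 7 lists of related genes, 1 point per gene, red where limma's adjusted p was under 0.05. The median of the 10 genes, 0.45, lies right of the lists' medians, which run from -0.18 to 0.23.

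Markers of the cells that make or lie in the matrix were read in the same arrays. Over all genes 2.32% were called higher and 2.94% lower. Of 9 fibroblast markers 1 was called higher, Pdgfra, the receptor that marks fibro-adipogenic progenitors, at 5.63 ± 0.15 in Ts65Dn and 5.01 ± 0.20 in WT (SD, n = 4 each; fold change 0.62, limma adjusted p = 0.0456). Dpt, dermatopontin, had a fold change of 0.54 (limma adjusted p = 0.0722). Of the 9 fold changes 6 were positive and 3 negative, those of Gsn (-0.35), Clec3b (-0.22) and Pi16 (-0.22), named after their values were seen. The mean level of the 9 was 5.72 to 6.14 in Ts65Dn, highest in arrays 3 and 4, and 5.56 to 5.77 in WT. Col1a1, which fibroblasts also make, had a fold change of -0.35 (limma adjusted p = 0.168), and of -0.05 without WT arrays 2 and 3.

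Of 7 endothelial markers 2 were called higher, Kdr (0.99) and Emcn (1.18), named after their values were seen, and the mean of the list was 5.71 to 6.06 in Ts65Dn and 5.12 to 5.58 in WT. Pecam1 and Cdh5 had fold changes of 0.58 and 0.54 (limma adjusted p = 0.188 and 0.08). The 2 negative fold changes were those of Cldn5 (-0.30) and Tie1 (-0.04), also named after their values were seen. With WT arrays 2 and 3 left out, the fold change was 1.03 for Kdr, 0.73 for Emcn, 0.14 for Pecam1 and 0.33 for Cdh5. After level matching over all arrays these were 1.27, 1.14, 0.41 and 0.17. Of 12 macrophage markers 1 was called higher, Cd68, a lysosomal protein, at 7.0, 6.33, 8.27 and 9.31 in Ts65Dn, against 5.37, 5.88, 4.34 and 5.77 in WT. Like Postn, Cd68 was highest in Ts65Dn array 4. The mean of all 12 was 5.01 to 5.47 in Ts65Dn and 4.76 to 4.97 in WT. Without Cd68, a list trimmed after the values were seen, it was 4.83 to 5.12 in Ts65Dn and 4.70 to 5.03 in WT, which overlap, and 4 of the 12 fold changes were negative. Adgre1, an adhesion receptor that marks mature mouse macrophages, had a fold change of -0.05. Of 8 tendon markers 0 passed limma's test, with 2 at an unadjusted p under 0.05, and their mean was 4.93 to 5.64 in Ts65Dn and 5.25 to 5.72 in WT. Of their fold changes 3 were positive and 5 negative. Tnmd, tenomodulin, had a fold change of 0.26 and was highest in WT array 4, at 6.90. Scx, scleraxis, a transcription factor of tendon cells, had every Ts65Dn array below every WT array, at a fold change of -0.54 (limma adjusted p = 0.0578) and -0.84 after level matching. The part of these cell types in the differences of Postn, Fn1, Bgn and Lum was not tested.

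**Figure D5:**
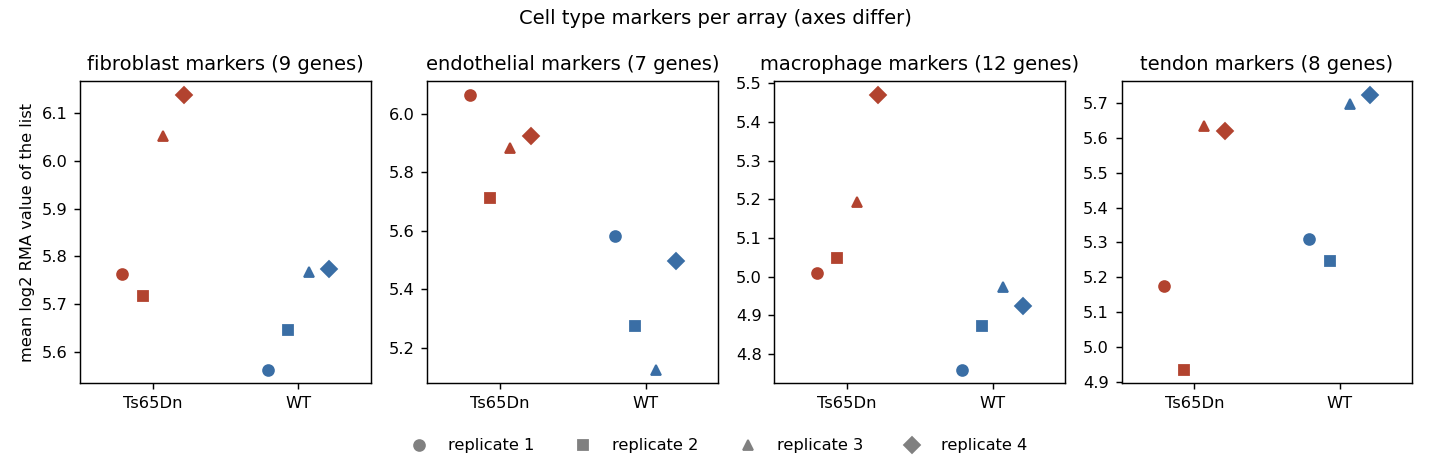
The mean log2 RMA value (vertical axis, scaled to each panel) of fibroblast, endothelial, macrophage and tendon markers in each mouse, Ts65Dn left of WT. Endothelial and macrophage means do not overlap between the groups, fibroblast and tendon means do, and Ts65Dn array 4 is the highest array for fibroblast (6.14) and macrophage (5.47) markers.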

How the data were processed

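Total RNA of soleus muscle was amplified as whole-transcript cDNA and labelled with biotin, 1 array per mouse, per the labels' protocols. The deposited values are log2 values that the authors made at gene level with Affymetrix Expression Console 1.1 and RMA, per the submitters' processing notes. RMA corrects background, normalizes between arrays and pulls in differences of low signals. The log2 scale was read from the range of the values, which grow with brightness and keep each gene's own level. The build behind the probe sets is not given in the sources used here.

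Of 35556 probe sets, 21789 have 1 gene symbol in the platform annotation, 1621 have several and 12146 have none, and the last 2 classes were not tested. Symbols were updated through Entrez identifiers (21698 probe sets). Where a gene has several probe sets the brightest was used, which gave 19938 genes. The fit was limma's (version 3.58.1, R 4.3.3; lmFit, then eBayes) on 4 against 4 arrays without covariates, and two-sided p-values were adjusted over all genes by Benjamini-Hochberg. Python 3.11.15, pandas 2.3.3 and matplotlib 3.10.9 were used for tables and plots, and the fit was tested on simulated data. Precision is limited by the 8 arrays.

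The 10 genes, the lists and the tests were chosen with earlier results of these data known. Beside the 10, the text names the genes of a pathway list that passed (up to 4) or else its first 2, the first 2 measured genes of a marker list, Cd68, and the 5 genes closest to Postn and to Fn1. Markers of muscle subtypes, mural, fat, Schwann, blood and satellite cells are given in the closing section. Promoter sequences are those of RefSeq (GRCm38.p6). Alternatives changed the normalization, centring, level matching, filter, probe sets, block, weights, variance model, adjustment, threshold and arrays.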

Additional observations from a re-analysis of the deposited data

Results flagged for a closer look

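In 4 cases 1 array of the Ts65Dn group lay far from the other 3, with a gap to its nearest neighbour above Dixon's critical share of the group's range. Ts65Dn array 4 was the high one in Postn (8.63, a gap of 0.875 of the range), Lox (4.97, 0.925) and Timp1 (5.33, 0.849). Ts65Dn array 2 was the low one in Thbs1 (4.55, 0.831). In all, 42 combinations of a gene or array measure and a group were looked at, and chance alone marks about 1 in 20. Without Ts65Dn array 4 the fold change was 1.40 for Postn, 0.01 for Lox and 0.16 for Timp1, and without Ts65Dn array 2 it was 0.15 for Thbs1. Ts65Dn array 4 was also the highest of the 8 arrays in Cd68 (9.31), and why it stood apart was not tested.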

How the results depend on the processing

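The 20 alternatives left the direction of Postn, Fn1, Bgn, Lum, Dcn and Sparc positive in each, as for Lox and Timp1 in the 19 that kept them. Tnc reversed, to 0.041 with another quantile normalization, 0.12 with cyclic loess, 0.038 with median centring and 0.11 with level matching. Thbs1 reversed without Ts65Dn arrays 1 (-0.02), 3 (-0.01) and 4 (-0.04) and WT arrays 1 (-0.02) and 4 (-0.075), and over all arrays left out it ran from -0.075 to 0.15. Postn, Fn1 and Bgn each passed in 7 of 20 alternatives. Of 3 called, 0 remained with another quantile normalization, cyclic loess, level matching, array weights, all probe sets adjusted together, the replicate block, or without WT arrays 2 and 3, and 0 to 4 when single arrays were left out. Over all genes 1049 calls (462 higher, 587 lower) became 1 with another quantile normalization, 135 with cyclic loess (117 higher, 18 lower), 89 with level matching (73 higher, 16 lower), 436 above the median level, 236 with array weights, 0 with all probe sets adjusted together, 1 without WT arrays 2 and 3, 4961 at an adjusted p under 0.1, and 0 to 2865 with single arrays left out. Median centring gave 951 higher and 57 lower. It left 0 called in the crosslinking list and 1 among the proteoglycans.

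With an adjusted p under 0.1, 6 TGF-beta genes, 3 crosslinking genes, 6 matricellular relatives, 3 metalloproteinase genes, 5 receptors and 2 proteoglycans were called. Above the median level, or with an intensity trend, 1 receptor was. The crosslinking list had 0 above the median level and with the mean of all probe sets. Wherever 0 of the 10 genes were called, the lists had 0 too. With single arrays left out the counts were 0 to 4 (TGF-beta), 0 to 2 (crosslinking), 0 to 5 (relatives), 0 to 2 (metalloproteinases), 0 to 3 (receptors) and 0 to 1 (proteoglycans). The cause of these moves was not tested.

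Same-numbered arrays deviated together only weakly (r of 0.03, 0.01, 0.09 and 0.07), so the numbers were not taken to pair mice. Between arrays of different numbers r ran from -0.12 to 0.09. The numbers in the sample descriptions run next or close to each other within a replicate number, and the labels do not say what they stand for. The replicate block gave 0 calls over all genes, and Postn a limma adjusted p of 0.0530. At an unadjusted p under 0.05 it had 7014 genes, against 6948 without the block.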

Other observations

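Markers of other cells that the muscle could hold gave 1 call, in the 8 mural markers, where Notch3, named after its values were seen, fell by 0.48 on the log2 scale (limma adjusted p = 0.0498). Notch3 was dim, at 4.66 in Ts65Dn and 5.15 in WT, and its level-matched value was -0.22. Rgs5 and Pdgfrb, of pericytes, had fold changes of 0.30 and 0.02. Of 5 adipocyte, 3 Schwann cell, 2 blood, 5 satellite cell and 5 regenerating fibre markers 0 passed limma's test, with 1, 0, 0, 1 and 3 at an unadjusted p under 0.05. Over all genes 6948 of 19938 were under that p. Myh3 and Myh8, the embryonic and perinatal myosin heavy chains, had fold changes of 0.64 and 0.66 (limma adjusted p = 0.0823 and 0.112). Of the 5 regenerating fibre markers 3 were positive and 2 negative. The negative ones were Mymk (-0.52, limma adjusted p = 0.0984) and Myod1 (-0.04), named after their values were seen. Adipoq and Plin1, of fat cells, had fold changes of 0.23 and -0.34, and Sox10 and Mbp, of Schwann cells, -0.35 and -0.12. Alas2 and Slc4a1, of red cells, had -0.01 and -0.24, and Pax7 and Myf5, of satellite cells, -0.29 and -0.21. After level matching Pax7 was at 0.02 and Myf5 at 0.00. Plin1 was then at -0.13, Sox10 at -0.21, Mbp at 0.01, Slc4a1 at 0.05 and Mymk at -0.33. Of the 5 satellite cell markers 3 were negative and 2 positive, Vcam1 (0.46) and Chodl (0.30), named after their values were seen. Of 9 slow soleus fibre markers 0 passed, with 0 at an unadjusted p under 0.05.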
